A study of Mus musculus with 6 samples.

Results

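Autophagy is the route by which a cell encloses part of its own cytoplasm in a double membrane, the autophagosome, and delivers it to the lysosome for breakdown. A kinase complex starts the process and a lipid kinase marks the site. Lipid transfer proteins let the membrane grow, and a conjugation system attaches small Atg8 proteins to it. Receptor proteins tie cargo to those Atg8 proteins, and tethering factors bring the closed vesicle to the lysosome. In muscle the pathway clears worn organelles and proteins and is active when precursor cells differentiate.

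The genes described here are 43 listed components of this pathway, grouped by role into initiation, lipid kinase, membrane growth, conjugation, Atg8 proteins, receptors and fusion. They were found by gene symbol, older or current, among probe sets that the array's annotation assigns to exactly 1 gene. Of the 43 genes 42 were measured, out of 18195 genes in all, by 104 probe sets. No probe set assigned to Optn alone was found in the annotation used, and Optn is not analysed here.

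The cells were mouse myoblasts, dividing precursors of skeletal muscle, taken from the hindlimbs of C57BL/6JRj mice, all male and aged 9 to 15 weeks. They were plated on fibronectin (3 samples) or on collagen I (3 samples) for 72 hours, in Ham's F-10 medium with 20% fetal bovine serum, 2.5 ng/ml basic fibroblast growth factor and antibiotics on both coatings. Fibronectin and collagen I are matrix proteins that cells grip through different integrins, and the comparison asks what the coating changes in gene expression. The labels name no genetic change and do not say whether the samples came from separate animals or cultures, so the p-values rest on a sample-to-sample spread that may be technical.

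Total RNA was measured on an Affymetrix mouse array, and every level below is a log2 signal as deposited, every change the fibronectin mean minus the collagen mean on that scale. Sample medians over all 45101 probe sets were 2.30 to 2.34 on fibronectin and 2.35 to 2.39 on collagen, and the number of arrays limits the precision. The myoblast label was checked against marker genes. Myod1 averaged 10.04 on fibronectin and 10.10 on collagen, Myf5 8.49 and 8.41, Pax7 8.77 and 8.89, and Des 6.57 and 6.80. All 8 listed myoblast markers were above the minimum level, and 4 of them changed. Des and Myog, a factor of the onset of differentiation at 3.98 on fibronectin and 4.81 on collagen, were lower. The adhesion molecules Cdh15 (6.31 on fibronectin, 6.07 on collagen) and Vcam1 (9.33 on fibronectin, 9.02 on collagen) were higher. Of 10 macrophage and leukocyte markers 7 lay below the minimum level for testing, with Ptprc at 0.53 on fibronectin and 0.47 on collagen and Adgre1 at 1.26 and 1.21. The 3' minus 5' difference of the array's Actb control was 0.57 to 0.65 on fibronectin and 0.63 to 0.72 on collagen.

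On fibronectin all 5 measured Atg8 genes and the 4 measured receptor genes among the 42 (Sqstm1, Nbr1, Tax1bp1 and Calcoco1) were lower than on collagen, led by Sqstm1 at 1.73-fold, whereas 9 of 10 conjugation genes and 3 of 4 initiation genes did not pass the test. The other roles were divided, and differences between roles were not tested. The roles also differed in brightness. Among all genes tested, mean levels lay at percentiles 84.55 to 95 for Atg8 genes and 30.74 to 97.56 for receptors. Conjugation genes ran from 13.85 to 86.38 and initiation genes from 29.4 to 54.48. The calls of Gabarapl2 and Calcoco1 were each lost under 4 of the alternatives given below. Of the 42 autophagy genes 21 fell, 0 rose and 21 did not pass (limma, adjusted p under 0.05 over all 10942 genes tested). Over all genes tested the same rule called 40.1% in either direction, 20.2% lower and 19.9% higher, so the autophagy genes were called lower in 50% of cases beside 20.2%. Their median log2 change was -0.15, beside 0.00 over all genes tested, and 36 of the 42 changes were below 0. In 23 of the 42 the fibronectin samples did not overlap the collagen samples, all 23 of them lower, where 53.3% of all genes tested did not overlap and 25.9% did so in the lower direction. The falls were small. Only Sqstm1, Wdr45 and Nbr1 were called at 1.5-fold or more, a size that 3.67% of all genes tested reached in that direction. In bulk RNA, fewer cells that express a gene and less RNA per cell cannot be told apart.

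**Figure D1:**
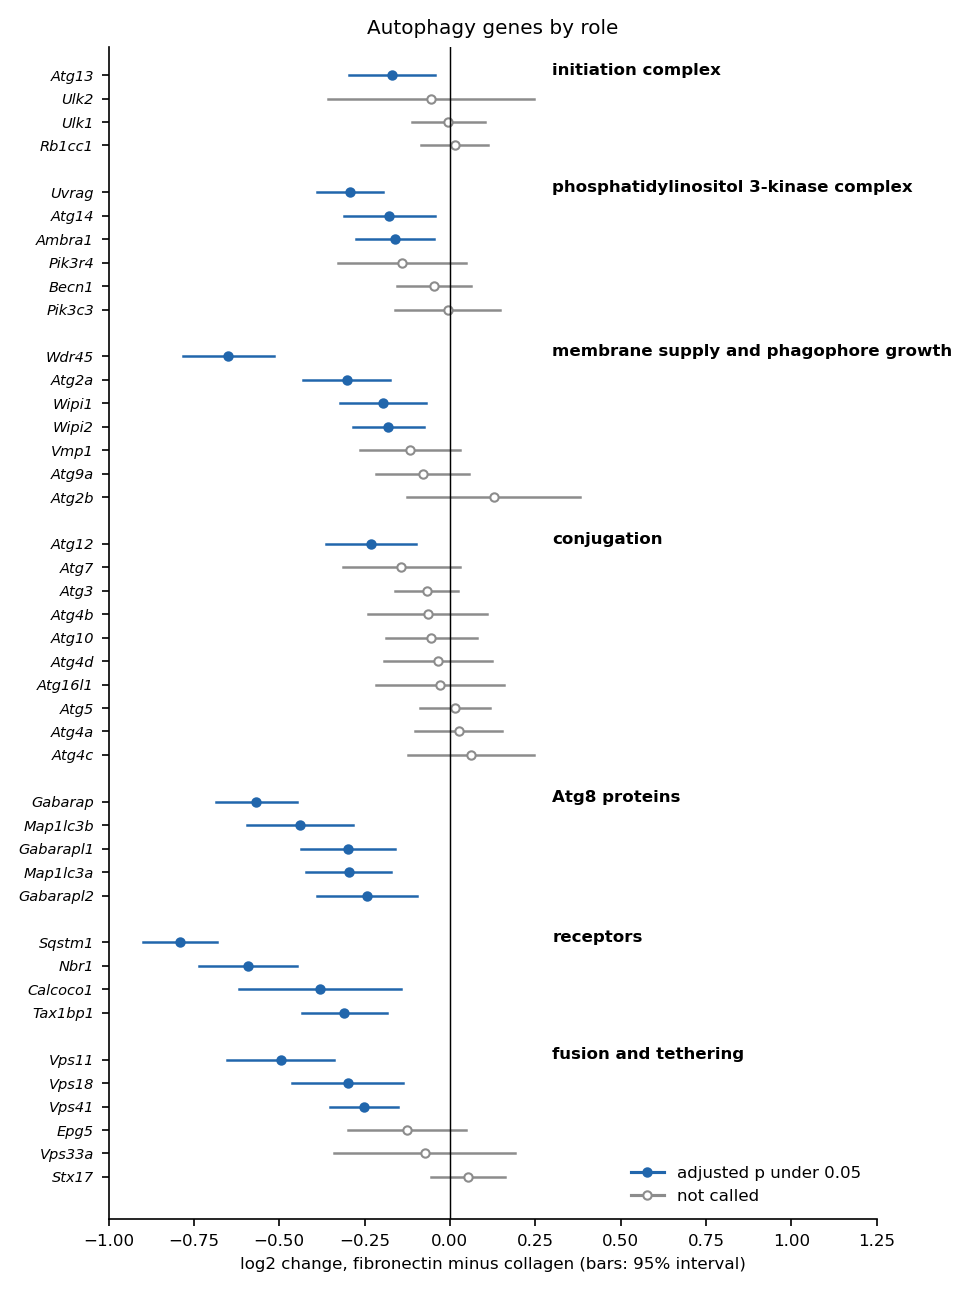
Log2 change on fibronectin relative to collagen for each of the 42 measured autophagy genes, grouped by role, with 95% intervals from limma (3 samples per coating). Filled points passed an adjusted p of 0.05. All 5 Atg8 genes and all 4 receptor genes lie left of 0, while 9 of 10 conjugation genes have intervals that cross it.

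Other gene groups moved with the coating as well. Of 7 tested markers of differentiated muscle 7 were lower on fibronectin, and the log2 of the summed signal of that list of 10 was 7.08 to 7.50 on fibronectin against 8.31 to 8.38 on collagen. The summed macrophage and leukocyte list gave 5.55 to 5.71 on fibronectin and 6.04 to 6.18 on collagen. Its tested members were Cd68, a lysosomal membrane protein that averaged 3.36 on fibronectin and 4.63 on collagen and fell, Cd14, which fell, and Csf1r, at 3.19 and 3.22. The fibroblast list gave 9.53 to 9.63 on fibronectin and 9.29 to 9.43 on collagen, with Col3a1 and Cd34 higher, Thy1 lower and the other 4 measured markers below the minimum. The adipocyte list gave 3.66 to 3.81 on fibronectin and 4.77 to 4.98 on collagen. In it Pparg, a regulator of fat cell formation, was 2.70-fold lower, at 3.17 on fibronectin and 4.61 on collagen. It was the only gene of that list tested, and Adipoq, Lep and Cidec lay below the minimum. Endothelial markers lay below the minimum in 6 of 6 cases. The part of these shifts in the autophagy result was not tested.

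Initiation begins with the Ulk kinases and their partners Atg13, an adaptor, and Rb1cc1, a large scaffold protein. Of these 4 genes Atg13 alone fell. Its signals were 4.79, 4.68 and 4.67 on fibronectin, against 4.92, 4.81 and 4.91 on collagen. The highest fibronectin sample lay just below the lowest collagen sample, and the log2 change was -0.17 (SE 0.05, adjusted p = 0.0391 by limma). This call was lost under 9 of the 13 alternatives that tested it at the same threshold, among them those without fibronectin replicate 2 (-0.15), fibronectin replicate 3 (-0.15), collagen replicate 1 (-0.15) and collagen replicate 3 (-0.15). The kinase Ulk1 differed by 0.00, with a 95% interval of -0.11 to 0.10, and Rb1cc1 by 0.01, with an interval of -0.08 to 0.11. Rb1cc1 was called higher when its 3 probe sets were averaged (0.16, adjusted p = 0.0225), and its other probe sets were dim, with means below the minimum for testing.

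Ulk2, the second kinase of the family, shows how far 1 sample can move a gene. It read 6.13, 6.18 and 6.12 on fibronectin, against 5.85, 6.37 and 6.37 on collagen. Collagen replicate 1 was the lowest of all 6 samples and the other two collagen samples were the highest. The log2 change was -0.06 (95% interval -0.36 to 0.25) and did not pass, but without collagen replicate 1 it was -0.23 and passed (adjusted p = 0.0092 by limma). The 2 other tested probe sets of Ulk2 gave -0.12 and -0.21 and did not pass. Over the group of 4 the median change was -0.03, and centring each sample on its median turned it to 0.02.

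The lipid kinase complex makes phosphatidylinositol 3-phosphate where the membrane will form. Pik3c3 is its catalytic subunit, Pik3r4 its regulatory subunit and Becn1 its scaffold, and Atg14 or Uvrag decides at which membrane it works. Uvrag had signals of 5.23, 5.26 and 5.23 on fibronectin, against 5.51, 5.54 and 5.56 on collagen. The 2 coatings were well apart, with a log2 difference of -0.29 (SE 0.04, adjusted p = 0.00126 by limma). The call held under all 14 alternatives run at the same threshold. Atg14 had 4.05, 4.11 and 4.15 on fibronectin and 4.36, 4.19 and 4.30 on collagen. Ambra1, a regulator that binds Becn1, had 5.18, 5.26 and 5.25 on fibronectin and 5.42, 5.33 and 5.43 on collagen. In both genes the gap between the coatings was narrow, and the changes were -0.18 (adjusted p = 0.0413) and -0.16 (adjusted p = 0.0333, limma).

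Those 2 calls were fragile. Atg14 lost its call under 10 of the 13 alternatives that tested it, among them those without fibronectin replicate 1 (-0.15), 2 (-0.18) or 3 (-0.20) and those without collagen replicate 1 (-0.14) or 3 (-0.17). Ambra1 kept its call under only 5 of 14 alternatives. It lost the call in 8 others, and also with probe sets averaged, where it turned to 0.029 (adjusted p = 0.695 by limma). The 8 include those without fibronectin replicate 1 (-0.14), 2 (-0.18) or 3 (-0.17) and those without collagen replicate 1 (-0.15) or 3 (-0.14), as well as no filter on dim genes (adjusted p = 0.0940), centring and the replicate block. Its second tested probe set gave 0.22. With samples centred, Uvrag was the 1 gene of the 6 still called. The core subunits did not pass. Becn1 changed by -0.05 (95% interval -0.15 to 0.06) and Pik3c3 by -0.01 (-0.16 to 0.15). Pik3r4 gave -0.14 (-0.33 to 0.05), with fibronectin replicate 1 at 5.21 and the other two fibronectin samples at 5.48 and 5.52, against 5.52 to 5.58 on collagen.

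Growth of the membrane needs the scramblase Atg9a, the lipid transfer proteins Atg2a and Atg2b, the phosphoinositide-binding proteins Wipi1, Wipi2 and Wdr45, and Vmp1, a scramblase of the endoplasmic reticulum. Of these 7 genes 4 fell. Wdr45, the gene mutated in a human neurodegeneration with brain iron accumulation, had signals of 5.53, 5.64 and 5.62 on fibronectin, against 6.31, 6.26 and 6.15 on collagen. That is a wide gap of 1.57-fold (log2 change -0.65, SE 0.06, adjusted p = 0.000154 by limma). The probe set used is of a type shared between related transcripts, and the second probe set of Wdr45 fell less, by 0.47 on the log2 scale. Atg2a read 4.42, 4.58 and 4.44 on fibronectin and 4.78, 4.75 and 4.82 on collagen, a log2 change of -0.30 (adjusted p = 0.00378 by limma). Atg2b, which shares its function, read 4.55, 4.53 and 4.62 on fibronectin, against 4.16, 4.59 and 4.58 on collagen. Its collagen samples spanned the fibronectin samples, and the change of 0.13 (95% interval -0.13 to 0.38) did not pass. The difference between the changes of Atg2a and Atg2b was not tested.

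Wipi2, which recruits the conjugation machinery, had 5.99, 6.07 and 6.02 on fibronectin and 6.21, 6.17 and 6.24 on collagen. Wipi1 had 7.61, 7.71 and 7.75 on fibronectin and 7.88, 7.83 and 7.94 on collagen. Both sets of samples were separate by little, and the log2 changes were -0.18 (adjusted p = 0.0148) and -0.19 (adjusted p = 0.0236, limma). Both calls were lost without the filter on dim genes, with samples centred (-0.13 and -0.14) and without fibronectin replicate 1 (-0.16 and -0.15). That of Wipi2 was also lost with probe sets averaged (-0.11) and that of Wipi1 without collagen replicate 3 (-0.17). The probe sets of Wipi1 disagreed. Of 6, 3 fell, at -0.19, -0.32 and -0.54, and the other 3 gave -0.07, 0.00 and 0.01 and did not pass. For Wipi2 a probe set about as bright as the one used gave 0.02. Vmp1 (-0.12, 95% interval -0.26 to 0.03) and Atg9a (-0.08, -0.22 to 0.06) did not pass.

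Conjugation runs through Atg7, which activates both ubiquitin-like proteins, Atg3 and Atg10, which carry them, Atg12 joined to Atg5 and Atg16l1, and the Atg4 proteases, which trim and release Atg8 proteins. Of 10 genes 1 fell. Atg12 had signals of 6.17, 6.29 and 6.09 on fibronectin, against 6.41, 6.44 and 6.39 on collagen. The samples did not overlap, the log2 change was -0.23 (SE 0.06, adjusted p = 0.0145 by limma), and a second probe set fell by 0.19. The call was lost when its 3 probe sets were averaged (-0.13) and without collagen replicate 2 (-0.22, adjusted p = 0.0505).

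The other 9 conjugation genes had log2 changes between -0.14 and 0.06. Atg5 gave 0.02 with a 95% interval of -0.09 to 0.12, so a fall of the size seen in Atg12 lies outside its interval. Atg3 read 8.12, 8.11 and 8.14 on fibronectin, against 8.19, 8.19 and 8.19 on collagen. Its samples were tight and did not overlap, yet the change of -0.07 (adjusted p = 0.216 by limma) did not pass. Atg7 gave -0.14 and passed without fibronectin replicate 2 (-0.22, adjusted p = 0.0319), the sample in which it was highest on that coating. Its 2 other tested probe sets gave -0.17 and -0.12. Atg4c gave 0.06, but a dimmer second probe set fell by 0.41, and the mean of both was called lower (-0.18, adjusted p = 0.0292). Atg4a, Atg4b, Atg4d, Atg10 and Atg16l1 had changes between -0.07 and 0.03. The median of the 10 was -0.04, and centring turned it to 0.01.

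**Figure D2:**
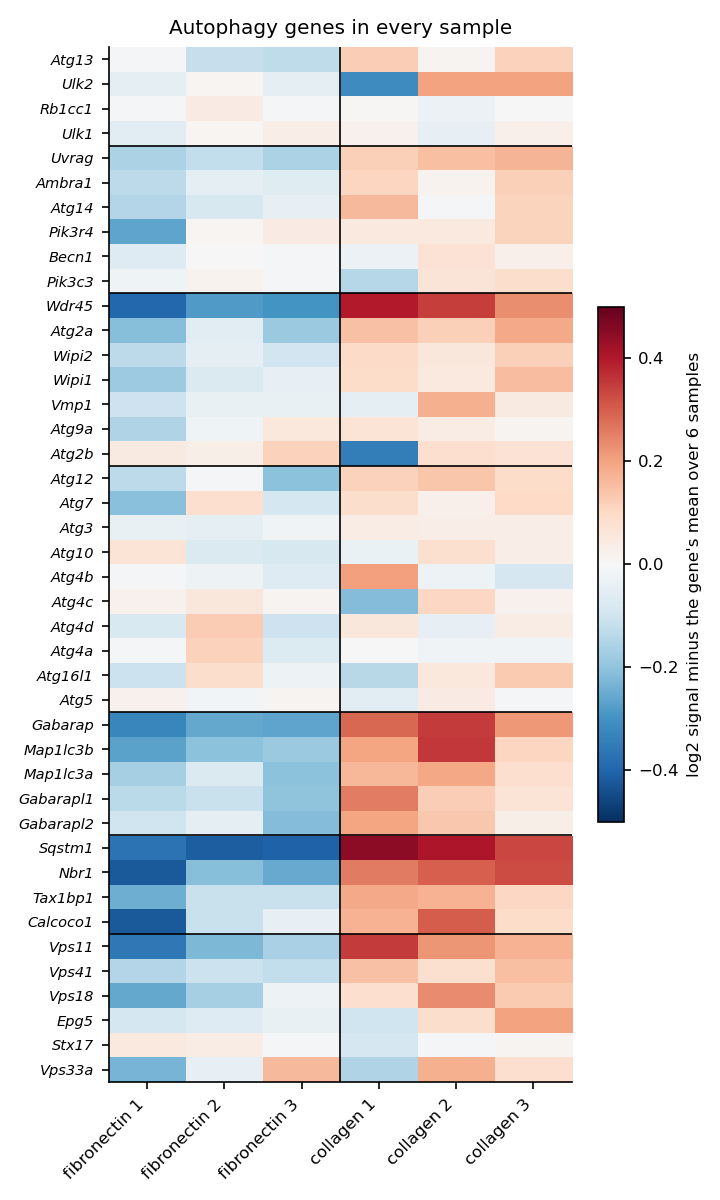
Log2 signal of each autophagy gene in each of the 6 samples, minus that gene's mean over the 6, with fibronectin samples in the left columns and collagen samples in the right columns and lines between roles. The blocks of Atg8 and receptor genes are below their mean in all 3 fibronectin samples, and Ulk2 and Atg2b stand out as low in collagen replicate 1.

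The Atg8 proteins are the small ubiquitin-like proteins that coat the membrane, in an LC3 branch (Map1lc3a and Map1lc3b) and a GABARAP branch (Gabarap, Gabarapl1 and Gabarapl2). All 5 genes fell on fibronectin, with a median log2 change of -0.30. Gabarap had signals of 9.03, 9.10 and 9.09 on fibronectin, against 9.65, 9.71 and 9.57 on collagen. This gap of 1.48-fold was several times the spread within either coating (log2 change -0.57, SE 0.05, adjusted p = 0.000159). Map1lc3b, the usual marker of autophagosomes, had 8.29, 8.36 and 8.37 on fibronectin and 8.76, 8.91 and 8.67 on collagen. It fell 1.36-fold (log2 change -0.44, SE 0.07, adjusted p = 0.00176), and its 2 other tested probe sets fell by 0.48 and 0.46 on the log2 scale.

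Map1lc3a had 7.93, 8.03 and 7.90 on fibronectin and 8.26, 8.29 and 8.18 on collagen. Gabarapl1 had 7.95, 7.97 and 7.88 on fibronectin and 8.33, 8.20 and 8.15 on collagen. In both the lowest collagen sample was above the highest fibronectin sample, and both changes were -0.30 (adjusted p = 0.00371 and 0.00556, limma). The probe set of Map1lc3a is of a type some of whose probes may bind other transcripts, and its second, more specific probe set gave -0.21 and did not pass (adjusted p = 0.0862). That of Gabarapl1 is of a type shared between related transcripts, and its specific probe set fell by 0.18. Gabarapl2 fell by 0.24 (adjusted p = 0.0183 by limma), while its dim second probe set gave -0.06 and did not pass. The call of Gabarapl2 was lost without the filter on dim genes (adjusted p = 0.0541) and without fibronectin replicate 3 (-0.20), collagen replicate 1 (-0.21) or collagen replicate 2 (-0.24), whereas those of the other 4 genes held under all 14 alternatives.

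Receptors carry a short motif that binds Atg8 proteins and a domain that binds ubiquitin or another mark on the cargo. Sqstm1, also called p62, gathers ubiquitin-tagged proteins and is itself degraded with them. Its signals were 9.66, 9.62 and 9.63 on fibronectin, against 10.48, 10.44 and 10.37 on collagen. Of the 42 genes it had the largest fall, with the fibronectin samples close together (log2 change -0.79, 95% interval -0.90 to -0.68, adjusted p = 2.88e-05). A second, dim probe set fell by 0.67. Nbr1, a receptor that works with Sqstm1, had 7.67, 7.88 and 7.84 on fibronectin and 8.35, 8.40 and 8.42 on collagen. It fell 1.51-fold (log2 change -0.59, SE 0.06, adjusted p = 0.000318), and its second probe set fell by 0.43.

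Tax1bp1, which also gathers ubiquitin-tagged cargo, had 7.71, 7.84 and 7.84 on fibronectin, against 8.14, 8.12 and 8.05 on collagen. Calcoco1, a receptor for endoplasmic reticulum and Golgi, had 4.45, 4.77 and 4.84 on fibronectin and 5.05, 5.18 and 4.97 on collagen. Neither gene overlapped between coatings, but fibronectin replicate 1 of Calcoco1 lay well below the other two. Tax1bp1 fell by 0.31 on the log2 scale (SE 0.05, adjusted p = 0.00317) and Calcoco1 by 0.38 (SE 0.10, adjusted p = 0.0206, limma). Calcoco1 did not pass without the filter on dim genes (adjusted p = 0.0545), with its dim second probe set averaged in (-0.15), or when collagen replicate 1 (-0.39, adjusted p = 0.0505) or collagen replicate 2 (-0.32) was left out. For Tax1bp1 a second probe set fell by 0.33 and another gave -0.22 and did not pass.

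**Figure D3:**
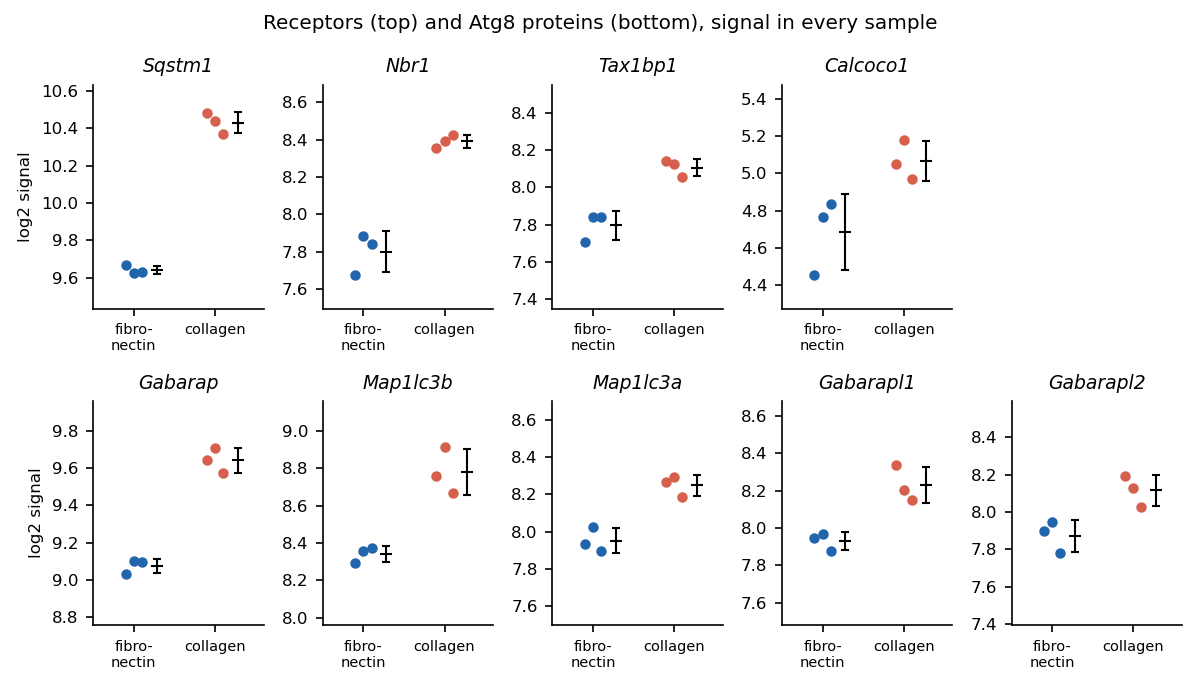
Log2 signal in every sample for the 4 measured receptor genes (top) and the 5 Atg8 genes (bottom), fibronectin at left and collagen at right, each dot 1 sample, with mean and SD (n = 3) beside it. Each panel has its own axis of the same span, and in no panel do the coatings overlap.

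Fusion uses the SNARE protein Stx17 on the autophagosome, the tether Epg5 and the HOPS complex, of which Vps11, Vps18, Vps33a and Vps41 are subunits. Of these 6 genes 3 HOPS subunits fell. Vps11 had signals of 5.65, 5.78 and 5.85 on fibronectin, against 6.36, 6.23 and 6.18 on collagen. It fell 1.41-fold (log2 change -0.50, SE 0.07, adjusted p = 0.00105), and a second probe set, of a more specific type, fell by 0.47. Vps41, which links HOPS to late endosomes, had 7.36, 7.40 and 7.39 on fibronectin and 7.66, 7.59 and 7.66 on collagen. All 3 of its probe sets fell, by 0.21 to 0.34. Vps18 had 3.90, 3.99 and 4.13 on fibronectin and 4.24, 4.40 and 4.29 on collagen, a log2 change of -0.30 (adjusted p = 0.0116 by limma).

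The remaining fusion genes did not pass. Vps33a, which binds the SNARE proteins, was spread from 3.96 to 4.35 on fibronectin and from 4.04 to 4.37 on collagen, with a change of -0.07 (95% interval -0.34 to 0.19). Epg5 gave -0.13 and passed only without collagen replicate 1 (-0.21, adjusted p = 0.0219), its lowest collagen sample, among the alternatives run. Stx17 gave 0.05 (-0.06 to 0.16). Its 4 probe sets were all above 0, at 0.05, 0.10, 0.14 and 0.27, and none passed. Whether Stx17 differed in its change from the HOPS subunits was not tested.

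Many genes had more than 1 probe set, which read different stretches of the transcript. Of 84 tested probe sets of autophagy genes 34 were lower and 0 higher, where 34.3% of all probe sets tested were called and 16.6% were lower. Among 26 genes with more than 1 tested probe set, 8 had all of them lower, namely Atg12, Gabarapl1, Map1lc3b, Nbr1, Sqstm1, Vps18, Vps41 and Wdr45. Another 8 had some lower and others not called, and 10 had none called. When every probe set was tested in 1 fit, Atg13 and Atg14 did not pass (adjusted p = 0.0534 and 0.0554).

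**Figure D4:**
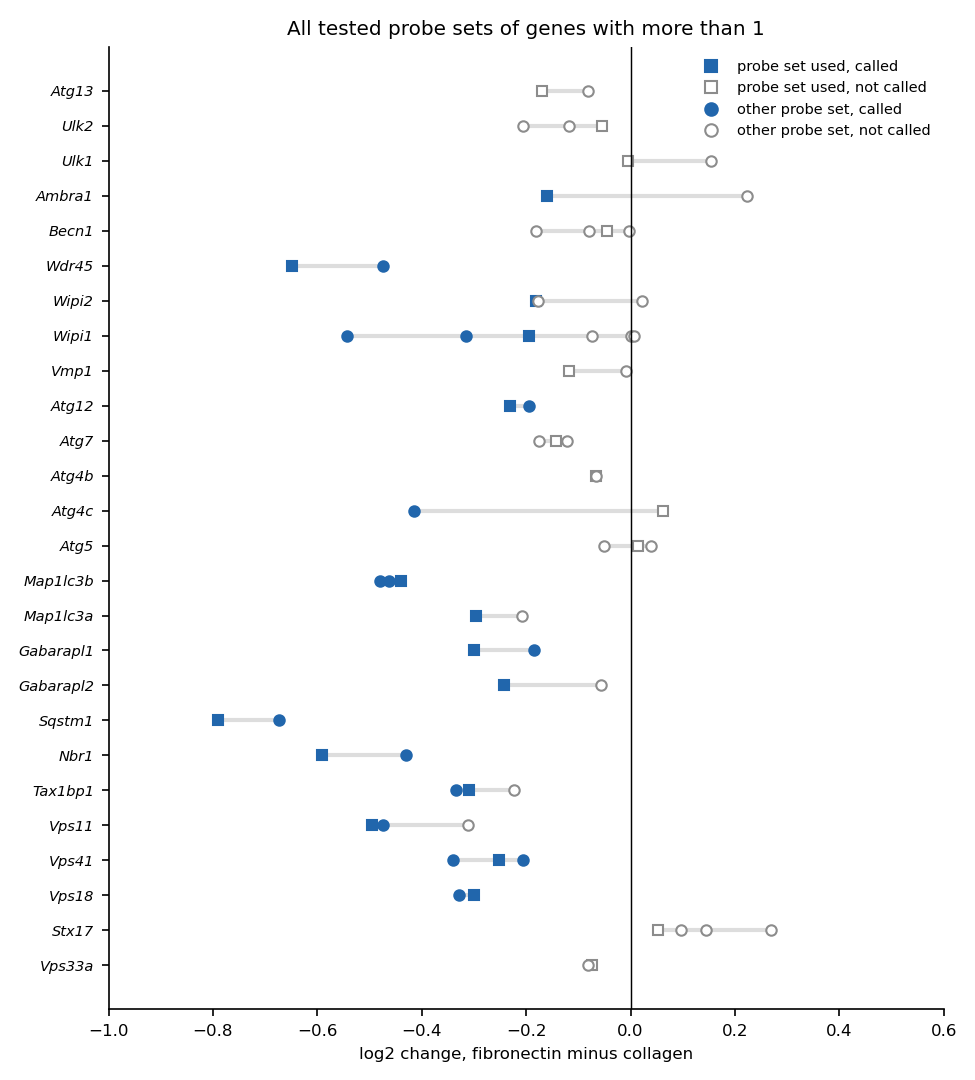
Log2 change of each tested probe set for the 26 autophagy genes with more than 1. Squares mark the probe set that stands for the gene and filled symbols passed an adjusted p of 0.05 over all probe sets tested. The 3 symbols of Map1lc3b lie together near -0.46, while those of Wipi1, Atg4c and Ambra1 are spread from below 0 to about 0 or above.

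Promoters were read for letters that the factors Tfeb, Tfe3 and Mitf bind (the E-box CACGTG and its longer form TCACGTGA) and for the core TGACNNNGC of the element bound by Nrf2 with small Maf proteins. Windows ran from 250 bases before to 50 after each start in RefSeq (GRCm38.p6), were searched on both strands, and existed for 34 of the 42 genes. A match of the longer form is also counted as an E-box. CACGTG was found in 1 of 18 genes that fell, Atg14, in 4 of 16 that did not pass, Atg3, Atg5, Atg7 and Vps33a, and in 8.09% of 27025 genes. TCACGTGA was found in 0 of 18, in 2 of 16 (Atg3 and Vps33a), and in 1.12% of all genes. TGACNNNGC was found in 3 of 18 that fell (Atg13, Map1lc3b and Tax1bp1), in 2 of 16 (Ulk2 and Vmp1) and in 14% of all genes. These are matches of letters in a short window and not sites shown to be bound.

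The 120 bases before the start are printed for 3 genes that fell, to show windows without the E-box, and for 2 genes that did not pass and that hold it in pairs. Sequences are from RefSeq, GRCm38.p6, written 5′ to 3′ on the gene's strand, with CACGTG in capitals.
Sqstm1, chr11:50210821-50210940, minus strand: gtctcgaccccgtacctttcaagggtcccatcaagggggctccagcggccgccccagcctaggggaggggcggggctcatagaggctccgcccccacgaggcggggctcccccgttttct
Gabarap, chr11:69991250-69991369, plus strand: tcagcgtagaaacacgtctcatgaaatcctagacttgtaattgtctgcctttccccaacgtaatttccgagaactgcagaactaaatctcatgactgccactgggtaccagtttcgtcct
Map1lc3b, chr8:121590318-121590437, plus strand: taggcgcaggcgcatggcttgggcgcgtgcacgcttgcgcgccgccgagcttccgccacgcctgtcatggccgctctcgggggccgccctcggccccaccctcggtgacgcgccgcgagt
Atg3, chr16:45158709-45158828, plus strand: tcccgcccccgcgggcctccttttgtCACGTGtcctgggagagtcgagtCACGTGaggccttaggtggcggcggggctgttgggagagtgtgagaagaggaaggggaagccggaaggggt
Vps33a, chr5:123573016-123573135, minus strand: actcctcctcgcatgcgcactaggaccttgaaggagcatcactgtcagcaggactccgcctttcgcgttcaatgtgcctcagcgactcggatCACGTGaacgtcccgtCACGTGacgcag

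The E-boxes of Atg3 begin 94 and 71 bases before the start and those of Vps33a 28 and 12 bases before it. In base composition the printed 120 bases differ, with 70.8% G and C in Sqstm1, 76.7% in Map1lc3b and 45% in Gabarap, 3 genes that all fell, against 65.8% in Atg3 and 59.2% in Vps33a.

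Other genes of the pathway, listed beside the 42, moved both ways. Of 20 further core and accessory genes 9 fell, 2 rose (Rubcn, an inhibitor of the lipid kinase complex, and Wdr45b, named after their values were seen) and 9 did not pass, with a median log2 change of -0.11. That is 45% lower and 10% higher, beside 20.2% and 19.9% of all genes tested. Tecpr1, a tether that joins autophagosomes to lysosomes, averaged 6.10 on fibronectin and 7.37 on collagen, a fall of 2.42-fold (adjusted p = 1.48e-05 by limma) that is larger than that of any of the 42. Plekhm1, an adaptor of HOPS on late endosomes, averaged 4.22 on fibronectin and 4.73 on collagen and fell 1.42-fold. Zfyve1, a phosphoinositide-binding protein of the early membrane, fell 1.34-fold, and Tmem41b, a scramblase that works with Vmp1, fell 1.32-fold.

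Selective receptors of organelles were mixed. Of 14 tested 5 fell, 2 rose and 7 did not pass, and the median was -0.06. The shares were 35.7% lower and 14.3% higher, beside the same 20.2% and 19.9%. Pink1, the kinase that marks damaged mitochondria, averaged 5.61 on fibronectin and 6.39 on collagen and fell 1.71-fold (adjusted p = 0.000159 by limma). Bnip3, a receptor on mitochondria that hypoxia induces, averaged 9.42 on fibronectin and 8.99 on collagen and rose 1.34-fold (adjusted p = 0.000239 by limma). The other gene that rose was Phb2, an inner mitochondrial membrane protein, at 1.11-fold. The receptors of endoplasmic reticulum Ccpg1 and Retreg1 fell 1.51-fold and 1.36-fold, and Tex264 and Sec62, of the same organelle, fell 1.17-fold and 1.16-fold.

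Among kinases and transcription factors upstream of autophagy 5 of 21 tested fell, 1 rose (Prkab2, a subunit of the energy-sensing kinase AMPK, 1.14-fold) and 15 did not pass, with a median of -0.09. The 23.8% that fell is near the 20.2% of all genes tested, so the values below describe single genes and not the list. Mitf averaged 5.20 on fibronectin and 5.89 on collagen and fell 1.62-fold, and its relative Tfe3 fell 1.18-fold. Tfeb, another member of this family of lysosome and autophagy regulators, was dim, at 2.94 on fibronectin and 3.09 on collagen. It did not pass (log2 change -0.15, adjusted p = 0.30 by limma). Foxo1, a transcription factor that activates autophagy genes in muscle, fell 1.40-fold. Rptor, the subunit of mTORC1 that binds its substrates, fell 1.19-fold, and the kinase Mtor itself fell 1.15-fold.

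**Figure D5:**
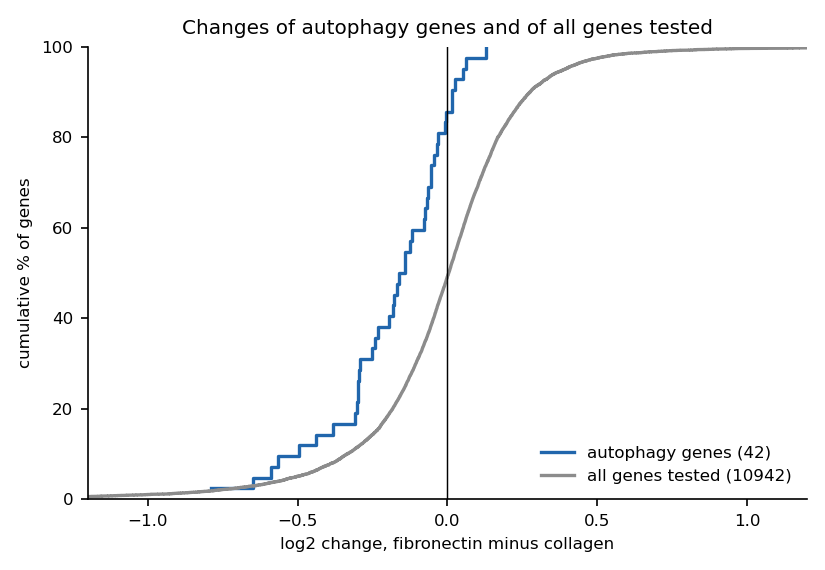
Cumulative share of genes by log2 change, fibronectin minus collagen, for the 42 autophagy genes and all 10942 genes tested, with the axis ending at 1.2 in either direction. The autophagy curve lies left of the other over most of its course, with 85.7% of autophagy genes and 49.3% of all genes tested below 0.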

How the data were processed

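The authors deposited log2 probe set signals of 6 arrays, 3 per coating. Per the submitters' processing notes the software was Affymetrix Expression Console with RMA, a method that gives arrays a common distribution and compresses changes of dim probe sets. Its version and settings, and when arrays were scanned, are not stated in those notes, and no batch was examined. Per the labels' protocols 300 ng RNA was labelled with biotin.

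Values ran from -0.17 to 12.7 and were used as deposited. Genes were named from the platform annotation and updated through RefSeq (GRCm38.p6), which held 18033 of 18195 gene identifiers. Among 45101 probe sets, 34958 carried 1 gene symbol, 932 carried more than 1 and were left unnamed, and 9211 were not listed. The probe set with the highest mean stood for a gene, and 10942 genes with a mean of at least 2.33, the median over all probe sets, were tested with limma 3.58.1 in R 4.3.3 (two-sided, no covariates, 4 residual and 3.80 prior degrees of freedom, Benjamini-Hochberg adjustment over all genes tested, threshold 0.05). All 42 autophagy genes passed that minimum. With 3 samples against 3 an exact permutation test cannot go below p = 0.1, so none was run. The procedure was also run on simulated data with independent noise, in which far fewer genes changed than were called here. That run does not measure the error rate in these data. Python 3.11.15 with matplotlib 3.10.9 made the figures.

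The members, lists and tests were chosen with earlier results of these data known. Values in every sample are given for members that passed, up to 4 per role by smallest p, and up to 4 genes that passed are named per further list, by smallest p. Other genes given by sample or by name (Ulk2, Pik3r4, Atg2b, Atg3, Cd14, Myog, Cdh15, Vcam1, Col3a1, Cd34, Thy1, Pparg, Adipoq, Lep, Cidec, Tfeb, Rubcn, Wdr45b, Vps16, Vps39, Phb2, Tex264, Sec62, Prkab2 and Mtor) were chosen after their values were seen. Alternatives were other filters, quantile normalisation again, centring, averaged probe sets, other variance models, array weights, a replicate block, a stricter threshold and leaving out each sample.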

Additional observations from a re-analysis of the deposited data

How the results depend on the processing

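Of the 21 autophagy genes called lower, 13 kept that call under all 14 alternatives run at the same threshold, 2 of these 13 (Atg2a and Vps18) not being tested under the 75th percentile filter. Over those alternatives 14 to 20 autophagy genes were called lower, and leaving out each sample gave 17 to 19, with 3433 to 4136 genes called over all genes, 19 to 23 other autophagy genes, 26 to 34 probe sets of members and a member median of -0.18 to -0.12. At an adjusted p of 0.01 the 21 autophagy genes became 12, the 4384 genes called in all became 2567 and the 24 other autophagy genes became 15. Of the alternatives at the same threshold, no filter gave the lowest count, 14, with 18195 genes tested. The share of all genes called lower was 20.2% as reported, 9.98% without a filter, 15% with centring and 12.8% at an adjusted p of 0.01. The median log2 change of the autophagy genes, -0.15, was -0.19 with the 75th percentile filter and -0.10 with samples centred, where the median of all genes tested was 0.06. With centring 2971 genes were called higher and 1646 lower (64.3% of calls higher), against 2173 and 2211 (49.6%) as reported, and 16 autophagy genes stayed among the lower ones. Averaging probe sets turned Ambra1 to 0.029, its probe sets giving -0.16, 0.22 and 0.03. It turned Atg4c to -0.18, its probe sets giving 0.06 and -0.41. Why probe sets of 1 gene differed was not tested. Deviations of same-numbered samples correlated at 0.10, -0.01 and 0.08, and those of samples with unlike numbers at -0.14 to 0.10. Values this weak cannot show whether replicate numbers pair the samples, and the labels do not say. With the replicate block 19 autophagy genes, 4173 genes in all, 21 other autophagy genes and 36 probe sets of members were called. The member median was then -0.15. Signals near the floor and 3 arrays per coating limit what can be called.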

Other observations

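Fibronectin replicates 1, 2 and 3 were the lowest of the 6 samples in 22, 2 and 8 of the 42 autophagy genes. Over all genes tested the shares were 21.6%, 10.7% and 14.8%. Collagen replicates 1, 2 and 3 were the lowest in 8, 1 and 1 of the 42, beside 20.6%, 17.7% and 14.6% of all genes tested. The 2 sets are unlike in this, since 85.7% of autophagy genes and 49.3% of all genes tested were below 0. The median deviation of the autophagy genes from their own means was -0.13, -0.05 and -0.06 in fibronectin replicates 1, 2 and 3. In the collagen samples it was 0.08 to 0.10. With fibronectin replicate 1 left out, 17 autophagy genes were called lower. Leaving out fibronectin replicate 3 or collagen replicate 3 gave 17 as well. No cause was tested for the values of fibronectin replicate 1.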
